A study of Mus musculus with 12 samples.

Results

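Small-intestinal transcripts of 8 genes of gluconeogenesis, glycolysis and glycerol or lactate use were followed through a fast. They were taken as every non-control probe whose gene name in the 12 h array files was Pck1, Tpi, Pkm2, Ldh1, Eno1, Gpd2, Gyk or G6pc-rs, which gave 8 of 18117 gene names and 9 of the 20281 probes measured, with 2 probes for Ldh1 and 1 for each other gene. The genes were chosen with results of these same samples known, so the counts of members called below are no independent evidence of their direction.

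Glycolysis breaks glucose down to pyruvate, which is reduced to lactate or oxidised in mitochondria, and gluconeogenesis runs back over most of the same enzymes. Phosphoenolpyruvate carboxykinase (Pck1) and glucose-6-phosphatase stand at steps of gluconeogenesis that glycolysis does not use, whereas triosephosphate isomerase (Tpi, now Tpi1) and enolase (Eno1) work in both directions. Glycerol released from fat enters between them through glycerol kinase (Gyk, now Gk) and mitochondrial glycerol-3-phosphate dehydrogenase (Gpd2), and the gut is known to carry out gluconeogenesis when dietary glucose is short.

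The mice were male FVB animals of 6 weeks, all kept in metabolic cages, and were either fed or fasted for 12, 24 or 72 h, with an infrared lamp for warmth in the longer fasts. Each of the 12 two-colour arrays held Cy3-labelled RNA from a separate pool of 2 mice, with 3 pools per time point, against a Cy5-labelled reference that the methods describe as 1 pool of 6 fed mice for all arrays. The label of fed replicate 3 alone gives its reference as gut of fed mice 5 and 6, the mice of its own Cy3 pool, and which of the sources holds for that array was not settled. The values below are log2 ratios of Cy3 over Cy5, so that 0 means the level of the array's fed reference, and a change between time points is the difference of their mean log2 ratios. RNA came from the full thickness of the intestinal wall, so fewer cells of a type and less RNA per cell cannot be told apart.

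Median Cy3 signal on the arrays was 3.36 to 6.00 times its background and median Cy5 signal was 1.65 to 2.12 times its background. Files of fed and 72 h arrays shared a format, and those of 12 h and 24 h arrays another. Median Cy5 intensity was 124 to 142 on the former arrays and 393 to 627 on the latter, whereas the median Cy3 intensities overlapped (216 to 291 and 167 to 295.5). For 12 h or 24 h against fed, and for 72 h against 12 h or 24 h, time of fasting and format therefore cannot be told apart. The comparisons of 72 h with fed and of 24 h with 12 h lay within a format. The enterocyte markers Vil1, Anpep, Lct and Apoa4, which were 4 of 10 such markers on the array, were well above background on all 12 arrays. Fed replicate 3 and 12 h replicate 3 stood apart for a small set of probes that included Eno1 and 1 Ldh1 probe. In 51 of 20006 probes (0.255%), the Cy3 signal of the former and the Cy5 signal of the latter both lay more than 2 log2 units below the other arrays of their time point, the set also holding Anpep, Lyzs and Ogdh. Counted singly, 104 probes were that low in the Cy3 signal of the former and 252 in the Cy5 signal of the latter. Short of that cut-off, Cy5 on 12 h replicate 3 stood at -1.32 for Gyk and -0.96 for Tpi from the other 12 h arrays. Results that rest on these arrays are given with and without them, and leaving out both was chosen after seeing the values.

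Pck1, the enzyme that makes phosphoenolpyruvate from oxaloacetate, rose at every time of fasting and by more at 72 h than at 12 h. The promoter of Pck1 is shown because it was the member that rose at all 3 times. Beside it stand promoters of 3 of the members that fell. Pkm2 and Gpd2, which also fell, are not shown. The windows are RefSeq's, 250 bases before to 50 bases after the transcription start, read 5′ to 3′ on the gene's strand, at chr2:173152823-173153122 (plus strand) for Pck1, chr7:46845554-46845853 (plus) for Ldha, chr6:124814109-124814408 (minus) for Tpi1 and chrX:85776770-85777069 (minus) for Gk, all on GRCm38.p6. Capitals mark TGACG on either strand, the core of the cAMP response element, and CACGTG, an E-box that carbohydrate-response and hypoxia factors can bind.
Pck1: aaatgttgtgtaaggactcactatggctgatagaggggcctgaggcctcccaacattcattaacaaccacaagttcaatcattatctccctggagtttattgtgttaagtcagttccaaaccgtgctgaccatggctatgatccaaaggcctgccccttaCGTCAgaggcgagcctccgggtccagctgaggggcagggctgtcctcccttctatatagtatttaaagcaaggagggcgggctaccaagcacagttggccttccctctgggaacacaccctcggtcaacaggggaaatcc
Ldha: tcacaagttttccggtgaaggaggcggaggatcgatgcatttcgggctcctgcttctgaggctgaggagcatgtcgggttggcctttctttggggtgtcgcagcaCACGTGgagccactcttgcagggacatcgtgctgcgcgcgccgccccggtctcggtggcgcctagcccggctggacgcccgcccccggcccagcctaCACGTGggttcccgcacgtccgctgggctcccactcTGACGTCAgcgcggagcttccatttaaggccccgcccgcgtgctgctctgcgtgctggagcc
Tpi1: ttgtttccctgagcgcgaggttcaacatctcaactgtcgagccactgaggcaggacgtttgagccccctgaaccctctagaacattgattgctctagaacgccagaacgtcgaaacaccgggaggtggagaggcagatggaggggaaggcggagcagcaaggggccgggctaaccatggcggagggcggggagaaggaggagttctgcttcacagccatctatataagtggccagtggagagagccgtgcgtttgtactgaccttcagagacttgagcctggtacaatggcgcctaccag
Gk: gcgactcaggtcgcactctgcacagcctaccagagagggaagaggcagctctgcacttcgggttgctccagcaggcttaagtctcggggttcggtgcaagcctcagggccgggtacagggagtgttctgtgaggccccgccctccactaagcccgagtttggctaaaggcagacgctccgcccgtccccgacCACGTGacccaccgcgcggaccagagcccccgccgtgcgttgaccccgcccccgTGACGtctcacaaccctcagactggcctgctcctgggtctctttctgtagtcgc

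All 8 members matched a RefSeq gene, with 14 promoter windows between them, of which 6 held TGACG and 2 held CACGTG. Over 32851 RefSeq promoters of the same length, TGACG was present in 20.8% and CACGTG in 7.15%. In the Pck1 window the match lay at position -90 from the start. In the Ldha window both motifs occurred more than once, with the overlapping TGACG matches that form TGACGTCA at positions -12 and -9 and CACGTG at -145 and -48. The Gk window held 1 of each, and neither sequence of letters was in the Tpi1 window. Both windows with CACGTG are thus among those printed. None of the windows of Pkm2 and Gpd2, which also fell, held CACGTG, and 1 Pkm2 window held TGACG. Whether a motif bears on the response was not tested.

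The Pck1 log2 ratio was -0.33, -0.32 and 0.13 in the fed pools. It was 0.73, 1.61 and 1.62 after 12 h, 1.73, 1.71 and 1.66 after 24 h, and 2.72, 2.24 and 1.94 after 72 h. Every fasted pool lay above every fed pool, and the 12 h, 24 h and 72 h pools did not overlap with each other. The 24 h pools were the closest together (mean 1.70 ± 0.04, SD, n = 3), and the 12 h pools the farthest apart (1.32 ± 0.51), replicate 1 being the low pool.

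**Figure D1:**
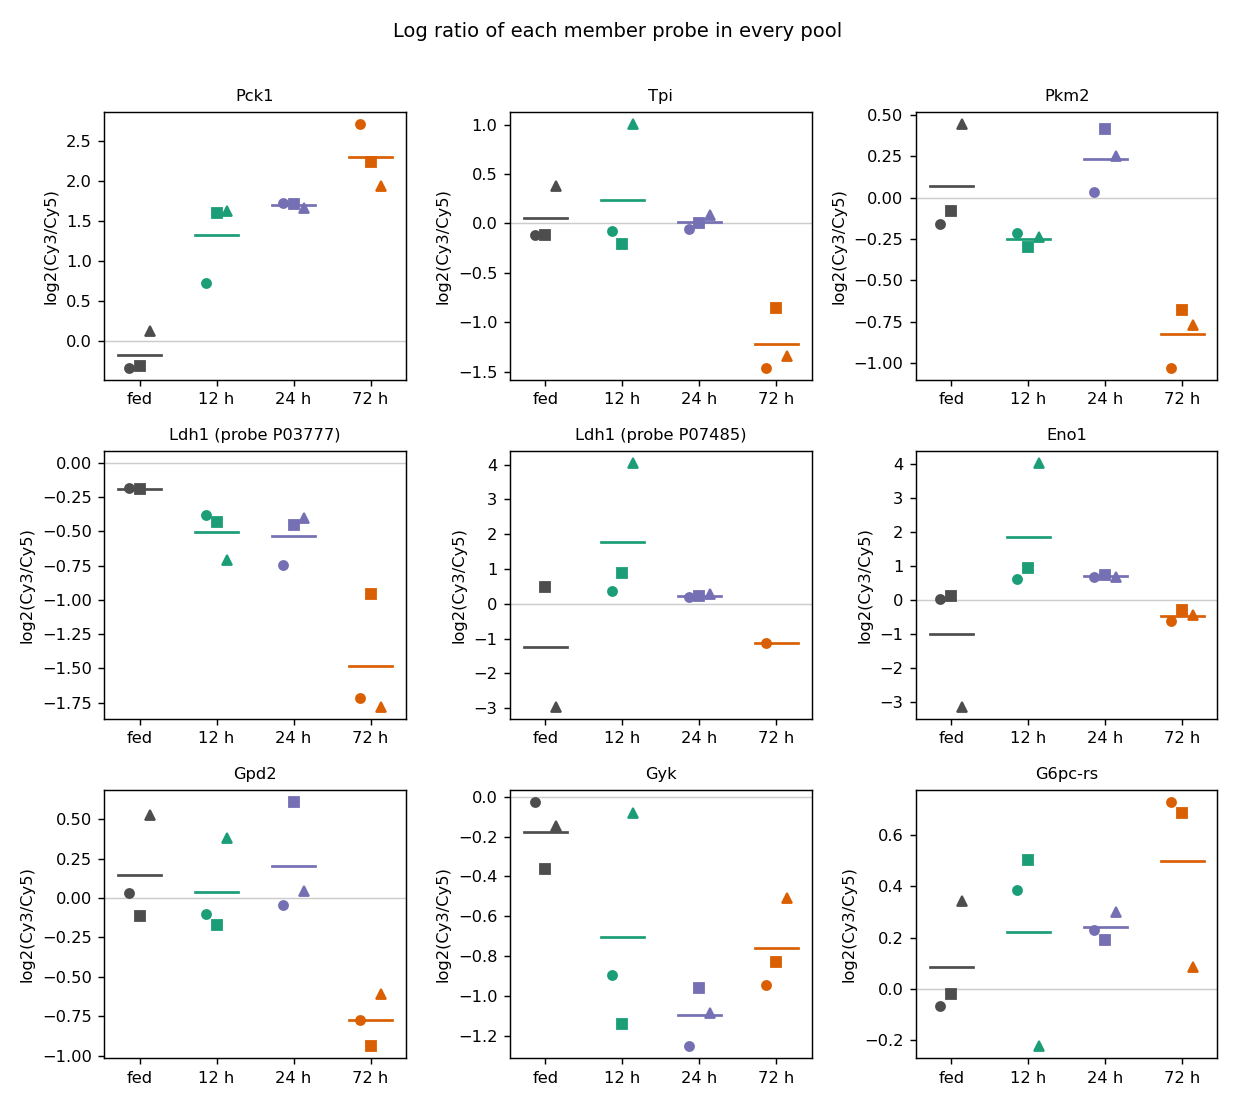
Log2 ratio of Cy3 over Cy5 (vertical axis, own scale in each panel) of each of the 9 member probes against hours of fasting. Points are single pools of 2 mice (circles replicate 1, squares replicate 2, triangles replicate 3) and bars the means of a time point; Pck1 stood above every fed pool at all fasting times, and the 3 pools of 72 h lay below every fed pool for Tpi, Pkm2, Gpd2 and Gyk.

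Against fed mice Pck1 rose by 1.49 ± 0.25 (log2, SE) at 12 h, 1.87 ± 0.25 at 24 h and 2.47 ± 0.25 at 72 h, or 2.82-, 3.66- and 5.54-fold (limma adjusted p = 0.00467, 0.00113 and 9.99e-05). These 3 comparisons share the fed pools. Between fasting times Pck1 rose by a further 0.98 from 12 h to 72 h (adjusted p = 0.0226), while the differences of 0.38 from 12 h to 24 h and 0.60 from 24 h to 72 h did not pass the test (adjusted p = 0.400 and 0.137). The rise from 12 h to 72 h did not pass without 72 h replicate 1 (0.77, adjusted p = 0.126) or 72 h replicate 2 (1.01, adjusted p = 0.0547). The 12 h call was lost when only the fed and 12 h arrays were fitted (adjusted p = 0.0831), where limma called 0 of 20279 probes, with 4241 at an unadjusted p under 0.05.

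The channels were also read apart. Normalized Cy3 signal of Pck1 rose by 1.30, 1.88 and 3.71 on the log2 scale at 12, 24 and 72 h against fed, the last being 13.1-fold (adjusted p = 5.76e-06), more than the 5.54-fold of the ratio. The Cy5 signal, which came from the fed reference on every array, was 10.36, 10.14 and 10.41 (log2) on the fed arrays, 9.81, 10.38 and 10.14 on the 12 h arrays, and 10.03, 10.46 and 10.47 on the 24 h arrays. On the 72 h arrays it was 11.03, 11.55 and 12.05, above every other array. That difference from the fed arrays, 1.24 ± 0.24, ranked 3 of 20273 probes by the size of the rise, with an adjusted p of 0.541 (unadjusted 0.000148). Limma called 0 probes in that comparison, with 869 at an unadjusted p under 0.05. From 12 h to 72 h and from 24 h to 72 h the Cy5 signal of Pck1 rose by 1.44 and 1.23 (adjusted p = 0.00586 and 0.00537), where 9.20% and 13.8% of all probes were called. What moved the reference signal of Pck1 was not tested.

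**Figure D2:**
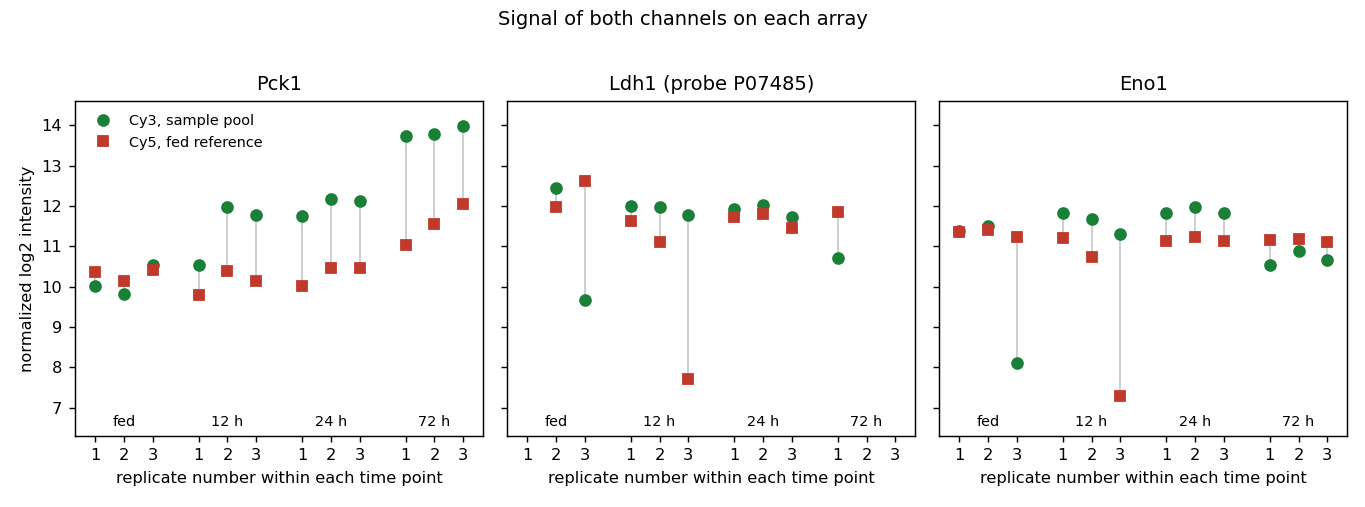
Normalized log2 signal of the Cy3 channel (the pools) and the Cy5 channel (the fed reference) on each array for Pck1, Eno1 and the second Ldh1 probe, with thin lines joining the channels of an array and outlier spots left out. For Pck1 both channels were highest on the 72 h arrays, and for Eno1 and the second Ldh1 probe the Cy3 signal of fed replicate 3 and the Cy5 signal of 12 h replicate 3 stood far below the other arrays.

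G6pc-rs, now G6pc2, encodes the glucose-6-phosphatase subunit known from pancreatic islets, a different gene from the liver and gut enzyme G6pc. Its log2 ratio was -0.07, -0.02 and 0.34 in fed pools, 0.39, 0.50 and -0.22 after 12 h, 0.23, 0.19 and 0.30 after 24 h, and 0.73, 0.68 and 0.09 after 72 h. The time points overlapped. Its Cy3 signal was not well above background on any fed array, and was on all 9 fasted arrays. Its Cy5 signal was not well above background on 5 arrays, those of 12 h replicates 1 and 2 and of all 24 h pools, so the ratios of those pools rest on a reference that was not well above background. A bound was therefore taken on Cy3 after loess within each array. Fed values under the lowest well-above-background signal of their array were raised to it. By the means, Cy3 at 72 h was then 1.08-fold the fed level, a figure that takes no account of the spread among pools. The log2 ratio did not pass at 72 h against fed (limma adjusted p = 0.256), so a rise was not established. It passed in 2 alternative fits, with array weights (0.55, adjusted p = 0.00520) and directly against the Cy5 reference (0.50, adjusted p = 0.0281). In these fits 34.3% and 25.0% of all probes were called. No bound above 1 could be given at 12 h or 24 h.

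Glycerol kinase, which phosphorylates glycerol so that it can join the pathway, had a lower mean log2 ratio after fasting. The difference passed the test at 24 h. The Gyk log2 ratio was -0.03, -0.36 and -0.14 in fed pools, and -1.25, -0.96 and -1.08 after 24 h. The 12 h pools, at -0.90, -1.14 and -0.08, overlapped the fed pools through replicate 3, and the 72 h pools, at -0.94, -0.83 and -0.51, did not. Gyk fell by 0.92 ± 0.23 at 24 h (1.89-fold, adjusted p = 0.0257), with differences of -0.53 at 12 h and -0.58 at 72 h that did not pass (adjusted p = 0.150 and 0.133). The differences of 24 h from 12 h (-0.39) and of 72 h from 24 h (0.34) did not pass either. The 24 h call was lost without fed replicate 1 (adjusted p = 0.0962), fed replicate 3 (0.0726), 24 h replicate 1 (0.0943) or 24 h replicate 3 (0.0660), with changes of -0.84 to -0.93. Without 12 h replicate 3, the Gyk ratio fell by 0.84 at 12 h (adjusted p = 0.0147) and by 0.58 at 72 h (adjusted p = 0.0194). Normalized Cy3 signal of Gyk (log2) was 10.35, 9.82 and 9.96 on fed arrays. At 12 h (10.07, 9.76 and 9.53) and 72 h (9.68, 9.67 and 9.97) it overlapped fed, and at 24 h (9.37, 9.69 and 9.40) it did not. Its Cy5 signal was 10.38, 10.18 and 10.11 on fed arrays and 10.96, 10.905 and 9.61 at 12 h. It was 10.62, 10.65 and 10.49 at 24 h, and 10.62, 10.50 and 10.48 at 72 h. What moved the reference signal of Gyk was not tested.

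Gpd2, which hands the electrons of glycerol-3-phosphate to the respiratory chain, fell at 72 h and not before. Its log2 ratio was 0.03, -0.11 and 0.53 in fed pools, -0.10, -0.17 and 0.38 after 12 h, and -0.04, 0.61 and 0.05 after 24 h. These 9 pools overlapped, whereas the 72 h pools, at -0.77, -0.94 and -0.61, lay below all of them. Gpd2 fell by 0.92 ± 0.22 at 72 h against fed (1.89-fold, adjusted p = 0.0163), by 0.81 against 12 h (adjusted p = 0.0323) and by 0.98 against 24 h (adjusted p = 0.0142). At 12 h and 24 h it differed from fed by -0.11 and 0.06. The 72 h call against fed was lost without fed replicate 3 (-0.73, adjusted p = 0.0849), 72 h replicate 1 (adjusted p = 0.0682) or 72 h replicate 2 (adjusted p = 0.0699). The call against 12 h was lost without 12 h replicate 3 (adjusted p = 0.0833) or any single 72 h replicate (adjusted p = 0.108, 0.107 and 0.0635), and the call against 24 h without 24 h replicate 2 (adjusted p = 0.0660), 72 h replicate 1 (0.0652) or 72 h replicate 2 (0.0531). By Cy3 signal alone both were lost, at -0.55 from 12 h and -0.53 from 24 h (limma adjusted p = 0.0948 and 0.121).

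Tpi, which interconverts the triose phosphates, followed the same course with a larger fall. The log2 ratio was -0.12, -0.11 and 0.38 in fed pools, -0.07, -0.21 and 1.01 after 12 h, and -0.05, 0.00 and 0.09 after 24 h. After 72 h it was -1.46, -0.86 and -1.34, below every pool of the other times. Tpi fell by 1.27 ± 0.27 against fed (2.41-fold, adjusted p = 0.00880), by 1.46 against 12 h (adjusted p = 0.00539) and by 1.23 against 24 h (adjusted p = 0.0128). At 12 h and 24 h the differences from fed were 0.19 and -0.04. On 12 h replicate 3, the pool at 1.01, normalized Cy3 signal was 12.27 (12.25 and 11.92 on the other 12 h arrays). Its Cy5 signal was 11.26, against 12.32 and 12.13 on those arrays. The call against fed was lost without fed replicate 3 (-1.11, adjusted p = 0.0541) or 72 h replicate 1 (-1.15, adjusted p = 0.0578), and the call against 24 h without 72 h replicate 1 (adjusted p = 0.0753) or 72 h replicate 3 (adjusted p = 0.0549).

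Pkm2, the pyruvate kinase that makes pyruvate and ATP at the end of glycolysis, also fell at 72 h. Its log2 ratio was -0.16, -0.08 and 0.45 in fed pools, -0.22, -0.30 and -0.24 after 12 h, 0.03, 0.42 and 0.25 after 24 h, and -1.03, -0.68 and -0.77 after 72 h. The 12 h pools lay just below the fed pools and the 24 h pools overlapped them. The 72 h pools were the lowest of all 12. Pkm2 fell by 0.89 ± 0.18 against fed (adjusted p = 0.00629) and by 1.06 against 24 h (adjusted p = 0.00353), while the difference of -0.58 from 12 h did not pass (adjusted p = 0.0564). Both calls stayed without any single array. By Cy3 signal alone both were lost, at -0.77 from fed and -0.71 from 24 h (adjusted p = 0.0617 and 0.0594). The call against fed was also lost with the log ratio deposited by the authors (-0.65, adjusted p = 0.0548).

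Ldh1, lactate dehydrogenase A, converts pyruvate to lactate and back, and was read by 2 probes. Probe A_65_P03777 gave log2 ratios of -0.18 and -0.19 in the 2 fed pools with a value, fed replicate 3 having been left out as an outlier spot. It gave -0.38, -0.43 and -0.71 after 12 h, -0.75, -0.46 and -0.41 after 24 h, and -1.72, -0.96 and -1.78 after 72 h. The 72 h pools lay below all others, and the 12 h and 24 h pools overlapped each other. By this probe Ldh1 fell by 1.30 ± 0.24 at 72 h (2.46-fold, adjusted p = 0.00390), by 0.98 against 12 h (adjusted p = 0.0120) and by 0.95 against 24 h (adjusted p = 0.0143). The call against 12 h was lost without 72 h replicate 1 (adjusted p = 0.0715) or replicate 3 (0.0606), and the call against 24 h without those (0.0831 and 0.0675) or without 24 h replicate 2 (0.0552) or 3 (0.0581), while the call against fed stayed without any single array. By Cy3 signal alone the call against 24 h was lost (-0.53, limma adjusted p = 0.135).

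The other Ldh1 probe, A_65_P07485, gave 0.49 and -2.96 in the 2 fed pools with a value. It gave 0.37, 0.88 and 4.05 after 12 h, 0.19, 0.23 and 0.29 after 24 h, and -1.14 in the only 72 h pool kept. The low fed value was replicate 3 and the high 12 h value replicate 3. With a single 72 h pool, any 72 h test of this probe takes its spread from the other time points. Its differences from fed of 3.00 ± 1.02 at 12 h, 1.47 at 24 h and 0.10 at 72 h did not pass (adjusted p = 0.0792 at 12 h). The 12 h value passed without 12 h replicate 1 (3.70, adjusted p = 0.0273). It also passed without fed replicate 2 (4.72, adjusted p = 0.0232), which left fed replicate 3, a departing array, as the only fed pool. Without fed replicate 3 and 12 h replicate 3, its 3 differences from fed, in order of time, were 0.14, -0.25 and -1.63. The last compared 1 fed pool with 1 72 h pool, and its adjusted p of 0.00395 assumes that both varied like the pools of the other times. The probes of Ldh1 differed in sign at all 3 times with every array in, and at 12 h without those 2 arrays.

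Eno1, which makes phosphoenolpyruvate in glycolysis and uses it in the reverse direction, shared that departure. Its log2 ratio was 0.03, 0.12 and -3.13 in fed pools, 0.61, 0.95 and 4.03 after 12 h, 0.68, 0.74 and 0.69 after 24 h, and -0.62, -0.29 and -0.45 after 72 h. All pools of 12 h and 24 h lay above the fed pools, and the 72 h pools fell between fed replicate 3 and the other two fed pools. Eno1 rose by 2.86 ± 0.81 at 12 h (adjusted p = 0.0389), and the differences of 1.70 at 24 h and 0.54 at 72 h did not pass (adjusted p = 0.197 and 0.734).

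The 12 h call of Eno1 was lost without fed replicate 3 (1.79, adjusted p = 0.155) and without 12 h replicate 3 (1.77, adjusted p = 0.105). It was also lost without fed replicate 1 (adjusted p = 0.0514) or any single array of 24 h or 72 h (adjusted p = 0.0541 to 0.0565), and held only without fed replicate 2, 12 h replicate 1 or 12 h replicate 2. Without fed replicate 3 and 12 h replicate 3 together, Eno1 rose by 0.71 at 12 h and 0.63 at 24 h and fell by 0.52 at 72 h (adjusted p = 0.0323, 0.0155 and 0.0339), so the 72 h direction turned. RefSeq lists Eno1 among the synonyms of a second gene, Eno1b, and the probe's sequence was not at hand, so which of them it reads is uncertain.

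**Figure D3:**
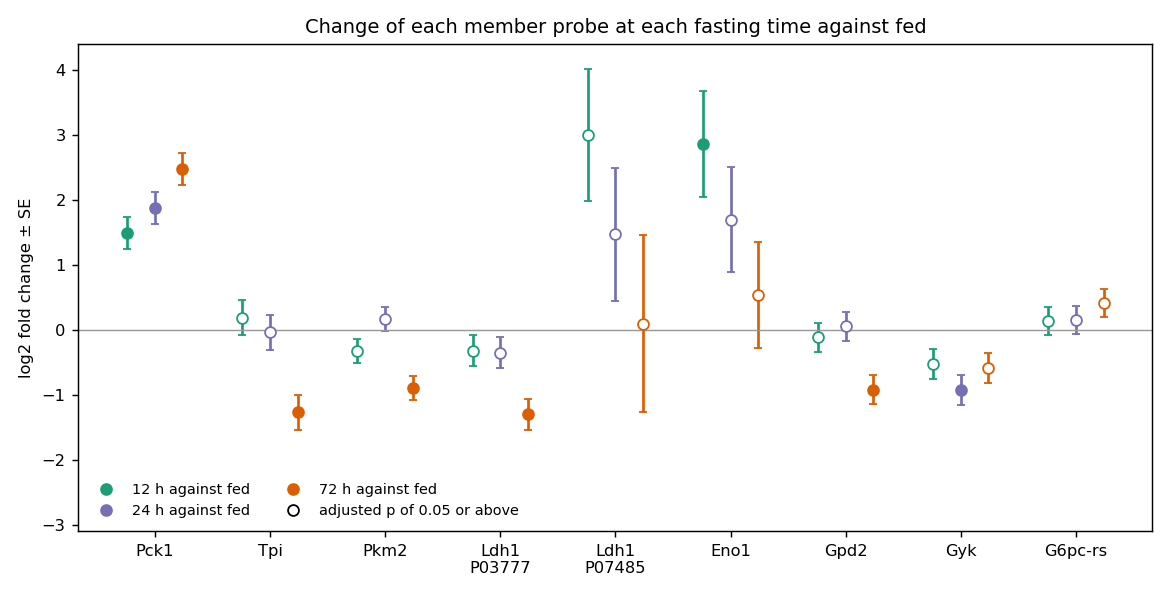
Log2 change (vertical axis) of each member probe against fed mice at 12, 24 and 72 h (colours); points are limma estimates, bars their standard errors, and filled points passed an adjusted p of 0.05. Pck1 rose at all 3 times, and the falls of Tpi, Pkm2, Gpd2 and Ldh1 (A_65_P03777) were at 72 h.

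Counted over the 9 probes, 2 were called at 12 h (22.2%, both higher: Pck1 and Eno1), against 10.9% of all probes, with 4.87% of all probes higher and 6.02% lower. At 24 h 2 were called (22.2%: Pck1 higher, Gyk lower), against 10.0%, with 3.76% higher and 6.26% lower. At 72 h 5 were called (55.6%: Pck1 higher, and Tpi, Pkm2, Gpd2 and Ldh1 A_65_P03777 lower), against 10.6% of all probes, with 4.81% higher and 5.79% lower. The median change of the 9 probes was 0.14, 0.16 and -0.58 at the 3 times, against -0.02, 0.02 and 0.01 over all probes. Without fed replicate 3 and 12 h replicate 3, 8 of 9 were called at 72 h (1 higher, 7 lower), against 14.7% of all probes, the 8 including Ldh1 A_65_P07485 from 1 pool on each side. At 12 h and 24 h 3 were called each without these arrays, against 5.07% and 16.5%.

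Between fasting times, 0 of 9 probes were called from 12 h to 24 h by limma (1 at an unadjusted p under 0.05), against 2.94% of all probes. From 12 h to 72 h 4 were called (1 higher, 3 lower), against 10.8% of all probes (5.84% higher, 4.91% lower), and from 24 h to 72 h 4 were called, all lower, against 10.6% (5.88% higher, 4.72% lower). Without both departing arrays these counts were 7 and 6, against 14.3% and 24.7% of all probes. At 72 h against fed, of the 7 probes with 3 pools on each side, 1 lay wholly above and 4 wholly below the fed pools, against 41.1% of all probes in either direction. By Cy3 signal alone, 1, 2 and 4 of the 9 probes were called at 12, 24 and 72 h against fed, against 15.0%, 24.6% and 8.68% of all probes.

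The other genes of these pathways were taken from lists of 72 genes, of which 49 were on the array. At 12 h 8 of them rose and 6 fell, at 24 h 5 rose and 0 fell, and at 72 h 4 rose and 10 fell. At these times 10.9%, 10.0% and 10.6% of all probes were called. Without fed replicate 3 and 12 h replicate 3 these counts were 6 and 2, 8 and 0, and 6 and 14, in the same order, against 5.07%, 16.5% and 14.7% of all probes. Of the 14 genes called at 12 h, 9 lost their call without these arrays, as did 1 of 5 at 24 h, while the 14 called at 72 h kept theirs.

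Among the 12 other genes of glycolysis, 1 rose at 12 h, 1 rose at 24 h and 2 fell at 72 h. The shares of all probes called were 10.9%, 10.0% and 10.6%, so the 12 h and 24 h counts are near what all probes gave. Pgam1, a phosphoglycerate mutase, fell by 1.25 ± 0.24 at 72 h (adjusted p = 0.00496). Pfkp, a phosphofructokinase, fell by 1.22 ± 0.31 by 1 probe (adjusted p = 0.0233; 0.81 without the departing arrays), while its other probes gave -0.24 and -0.17 and did not pass. Gpi1, glucose-6-phosphate isomerase, rose by 0.65 at 24 h. Gapdh rose by 2.19 at 12 h by 1 probe (adjusted p = 0.0263), and its other probe gave 0.27 (adjusted p = 0.538). The Cy5 signal of the first Gapdh probe on 12 h replicate 3 stood at -2.96 log2 units from the other 12 h arrays, and the rise was 0.91 without the departing arrays (adjusted p = 0.0271). Eno3, the muscle enolase, did not pass at any time (0.11, 0.22 and -0.35).

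Of 10 other genes of gluconeogenesis and its shuttles, 4 rose and 2 fell at 12 h, 1 rose at 24 h and 3 fell at 72 h. All-probe shares at these times were 10.9%, 10.0% and 10.6%. Pck2, the mitochondrial counterpart of Pck1, rose by 0.77 at 12 h and 0.56 at 24 h (adjusted p = 0.0141 and 0.0495) and stood at -0.36 at 72 h (adjusted p = 0.201). Without the departing arrays neither rise of Pck2 passed (0.67 and 0.50, adjusted p = 0.0579 and 0.0650). Gpd1, the cytosolic partner of Gpd2, fell by 1.33 ± 0.16 at 72 h (adjusted p = 0.000316). Fbp2, the muscle-type fructose-bisphosphatase, fell by 0.86 at 72 h, and Me1, malic enzyme, fell by 0.77 at 12 h and 0.98 at 72 h, the former lost without the departing arrays (-0.56, adjusted p = 0.120). G6pc3, the widely expressed glucose-6-phosphatase, rose by 1.04 at 12 h with every array in (adjusted p = 0.0386), and did not pass without the departing arrays (0.44, adjusted p = 0.225). Got1 and Got2, the aspartate aminotransferases, were called at 12 h by 1 probe each (-0.89 and 1.45), and their second probes gave -0.13 and 0.33 and did not pass. Without the departing arrays those calls were lost too (-0.64 and 0.53, adjusted p = 0.185 and 0.145).

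In the pyruvate dehydrogenase list, 1 of 9 rose and 2 fell at 12 h, 1 rose at 24 h, and 1 rose and 2 fell at 72 h. Among all probes 10.9%, 10.0% and 10.6% were called. Pdk4, the kinase that switches pyruvate dehydrogenase off, rose by 1.36 ± 0.18, 1.61 ± 0.18 and 2.35 ± 0.18 at 12, 24 and 72 h (adjusted p = 0.00196, 0.000520 and 5.37e-06). Pdhx, a structural subunit of the complex, fell by 0.96 at 12 h and 0.98 at 72 h, and Pdk3 fell by 0.90 at 72 h. Pdk1, a further kinase of the complex, fell by 0.70 at 12 h, a call lost without the departing arrays (-0.50, adjusted p = 0.0895). Of the 8 transport genes, Slc2a2, the basolateral glucose transporter GLUT2, fell by 0.74 at 12 h and 0.94 at 72 h, the former not passing without the departing arrays (-0.75, adjusted p = 0.0628). Slc16a3, a lactate exporter, fell by 1.02 at 72 h.

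Among 10 regulators, 2 rose and 1 fell at 12 h, 2 rose at 24 h, and 3 rose and 1 fell at 72 h. Calls over all probes were 10.9%, 10.0% and 10.6%. Foxo1, a transcription factor active when insulin is low, rose by 0.96 at 24 h and 0.85 at 72 h. Ppara, the fatty acid sensor, rose by 1.02 and 0.90 at 12 and 24 h, and Ppargc1a, a coactivator of gluconeogenic genes, by 1.13 at 12 h and 1.02 at 72 h. Without the departing arrays the 12 h value of Ppargc1a was 0.48 and did not pass (adjusted p = 0.246), and the 72 h rise was 0.72 (adjusted p = 0.0301). Hif1a, the hypoxia factor, fell by 1.13 at 12 h and 0.71 at 72 h. Rxra, the partner of Ppara, rose by 2.41 at 72 h, with the Cy3 signal of fed replicate 3 at -1.58 log2 units from the other fed pools, and by 1.90 without the departing arrays.

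**Figure D4:**
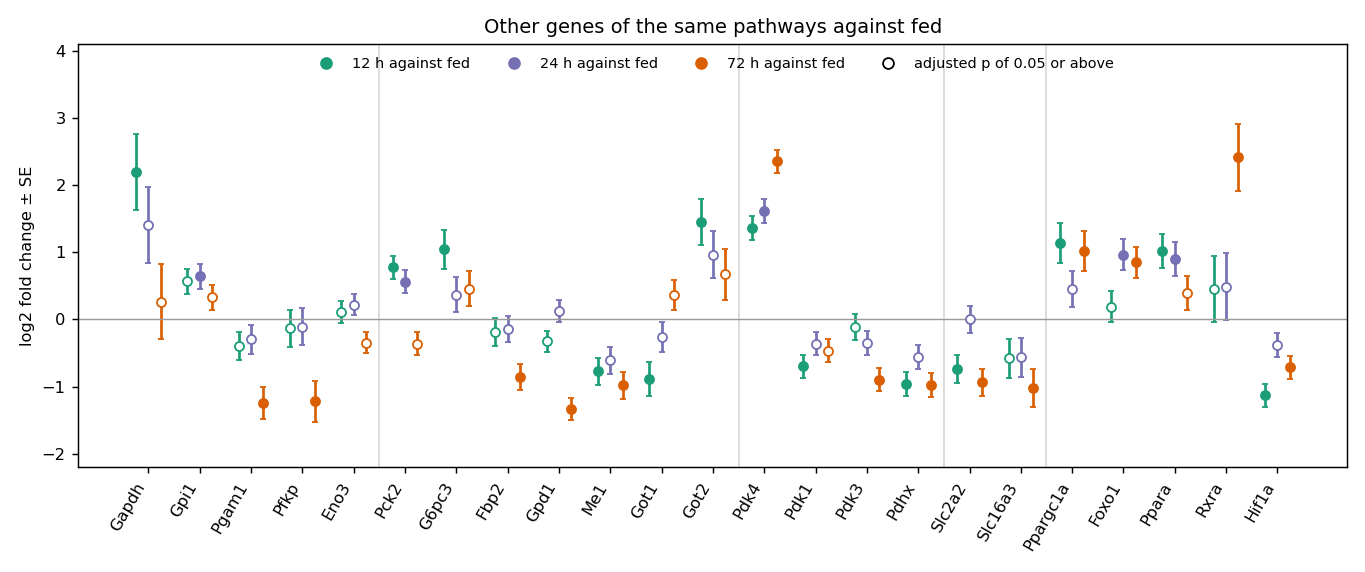
Log2 change against fed mice at 12, 24 and 72 h of the other pathway genes named in the text; points are limma estimates, bars their standard errors, filled points passed an adjusted p of 0.05, and grey lines divide the lists (glycolysis, gluconeogenesis and shuttles, pyruvate dehydrogenase, transport, regulators). Among these genes Pdk4 rose at all 3 times, by 1.36, 1.61 and 2.35.

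Likeness was taken over the 12 arrays and 5243 probes of named genes with values on all of them. The probes whose log2 ratios ran most like Pck1 were Egfr-rs (Pearson r = 0.963), Pdk4 (0.956) and Ppp3ca (0.941). For Tpi they were Fadd (0.967), Igfbp4 and Cdc42ep2, for Pkm2 Nrarp (0.980), Shyc and Sec23a, for Gpd2 Atp7a (0.953), Nnt and Umps, and for Gyk Timm23 (0.943), Mrpl27 and Ppp1cc. Eno1 ran most like Ppgb (0.989), Pcsk7 and Apeh, with r of 0.883, 0.906 and 0.872 to them over the 10 arrays left without the departing ones. Ldh1 A_65_P03777, over 11 arrays, ran most like Dhcr7 (0.963), Hspe1 and Dbi. These are descriptions over arrays that share the reference and the 4 time points.

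Markers of other cell types moved with the groups too. Of 9 smooth muscle markers 8 were on the array, and 5 rose at 12 h, 3 at 24 h and 2 at 72 h. For all probes the shares called were 10.9%, 10.0% and 10.6%. The mean log2 ratio of the smooth muscle markers was -0.56 to -0.02 in fed pools, 0.50 to 1.31 at 12 h, 0.37 to 0.54 at 24 h and -0.18 to 0.10 at 72 h. Of 6 liver markers 2 were on the array. Alb rose by 1.29 at 72 h (adjusted p = 0.00152), with -0.06 and 0.08 at 12 h and 24 h, and Ttr gave 0.24 at 72 h. The mean liver marker log2 ratio was -0.16 to 0.04 in fed pools and 0.60 to 0.89 at 72 h. Of 7 dividing crypt markers 6 were on the array, with 1, Pcna, lower at 12 h and at 72 h. Of the 4 enterocyte markers Anpep rose at 12 h. Lct was lower at 12 h and 72 h (-0.98 and -1.11), but it had a value in only 1 fed pool, fed replicate 3, and in 1 pool at 72 h. Any test of Lct against fed therefore takes its spread from the other time points. Anpep was among the 51 probes that departed, and its 12 h rise of 3.43 (adjusted p = 0.0162) was 1.44 without both arrays (adjusted p = 0.0109). None of the adipose, exocrine pancreas and B cell markers on the array was called against fed by limma with every array in. Without both departing arrays 4 smooth muscle markers rose at 12 h, against 5.07% of all probes called, and Pcna did not pass at 12 h (-0.43, adjusted p = 0.290). The adipose marker Fabp4 rose at 12 h and 24 h (1.39 and 0.75) in that fit, and the B cell marker Cd79a at 12 h (0.59). Anpep also rose there at 24 h (1.36, adjusted p = 0.00261) and Apoa4 fell at 72 h (-0.79, adjusted p = 0.0265). Lct, left with no fed value, could not be tested. The part of these cell types in the members' results was not tested.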

How the data were processed

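RNA was measured on 12 two-colour Agilent arrays of 60-base probes, 3 per time point. The authors scanned the arrays with Feature Extraction 6.1.1 and deposited, per array, the median Cy3 and Cy5 intensity and local background of 21446 spots, which are not normalized, with the outlier flags used here. They also deposited a log10 ratio score for each spot, whose decimal point was lost in some cells, and the same log10 ratio score for the whole series with the opposite sign. The authors subtracted background, quantile-normalized, removed outliers and used a split-factor analysis of variance, which was not repeated. Files of fed and 72 h arrays name Pkm2 as Pk3 and Gpd2 as Gdm1, and probe IDs joined them.

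Background was corrected by normexp (offset 50) on median intensities, 1075 control spots were dropped, outlier spots were set missing, the 24 channels were quantile-normalized and spots averaged, leaving 20281 probes. Dyes were not swapped. limma 3.58.1 in R 4.3.3 (with data.table, version 1.17.8) fitted the 4 group means to log2 Cy3/Cy5 over all arrays, with empirical Bayes tests and Benjamini-Hochberg adjustment over all probes, and called an adjusted p under 0.05. Arrays give no counts, so their number limits precision. The p-values measure the spread among pools of 2 mice. The scripts were tested on simulated data. Promoter motifs and figures used Python 3.11.15, numpy 2.4.6 and matplotlib 3.10.9.

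The members and gene lists were chosen with earlier results of these data known. All member probes are described. Of the other pathway genes, up to 6 per list with the lowest adjusted p among those called at a fasting time are named, by the brightest probe of each gene, with the isozymes of the members. A gene of the lists is not reported here. Alternatives changed the background correction, normalization, outlier and weak-probe filters, the ratio used, the samples fitted, array weights and the replicate block, and each replicate was left out in turn. Leaving out fed replicate 3 and 12 h replicate 3 together was chosen after seeing the data.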

Additional observations from a re-analysis of the deposited data

Results flagged for a closer look

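Probes of 5 members differed between fasting times by limma over all 12 arrays. Pck1 was 0.98 ± 0.25 (log2, SE) higher at 72 h than at 12 h (1.97-fold, adjusted p = 0.0226). Tpi was lower at 72 h, with a difference of -1.46 ± 0.27 from 12 h (adjusted p = 0.00539) and -1.23 ± 0.27 from 24 h (adjusted p = 0.0128). Ldh1 (probe A_65_P03777) differed by -0.98 from 12 h (adjusted p = 0.0120) and -0.95 from 24 h (adjusted p = 0.0143). Gpd2 differed by -0.81 from 12 h (adjusted p = 0.0323) and -0.98 from 24 h (adjusted p = 0.0142), and Pkm2 by -1.06 from 24 h (adjusted p = 0.00353). In each of these the change against fed differed between the fasting times by a test of that difference. The 12 h and 24 h arrays differ from the 72 h arrays in file format, which cannot be told apart from time here. By Cy3 signal alone, Gpd2 from 12 h and 24 h, Ldh1 (A_65_P03777) from 24 h and Pkm2 from 24 h did not pass.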

How the results depend on the processing

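Alternatives numbered 27 for the called changes against fed and 26 for those between fasting times. The Feature Extraction ratio and the series value table gave the same values, so they are not separate evidence and their losses count double. Pck1 at 24 h and 72 h and Ldh1 (A_65_P03777) at 72 h against fed kept their direction and call in every alternative. The other 14 called results lost theirs in at least 1. Pck1 at 12 h kept its call in 26 of 27, Pkm2 and Gpd2 at 72 h in 24, Tpi at 72 h in 22, Gyk at 24 h in 21 and Eno1 at 12 h in 10. Apart from Ldh1 (A_65_P07485), some results not called as reported gained a call. These were Gyk at 12 h and 72 h in 5 alternatives each, and Ldh1 (A_65_P03777) at 12 h and 24 h in 2 each. G6pc-rs at 72 h gained it in 2, and Pkm2 at 12 h and Eno1 at 24 h and 72 h in 1 each. The causes of the changes below were not tested.

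Member probes called at 12 h against fed (2 as reported) were 1 without background correction, with the Feature Extraction ratio, the series value table, Cy3 alone or the replicate block, 4 with median centring or directly against the Cy5 reference, and 0 with only the arrays of the time points compared (limma, 3 at an unadjusted p under 0.05). With the Feature Extraction ratio or the value table the counts were 1 at 24 h and 3 at 72 h against fed, and 2 from 12 h to 72 h. In the same order 16.1%, 15.8% and 7.27% of all probes were called. For 72 h against 12 h (4 as reported) they were 1 with median centring, 0 with only the arrays compared (limma, 6 at an unadjusted p under 0.05), 7 with array weights and 7 without both departing arrays, which also gave 8 at 72 h against fed. For 72 h against 24 h they were 2 with Cy3 alone and 7 with only the arrays compared. The shares of all probes called in these settings were, at 12 h against fed, 5.86% without background correction, 7.86% with the Feature Extraction ratio, 15.0% with Cy3 alone, 6.37% with the block, 14.9% with median centring and 23.6% directly against the reference. For 72 h against 12 h they were 3.27% with median centring, 2.99% with only the arrays compared, 15.6% with array weights and 14.3% without both departing arrays, and for 72 h against 24 h 16.5% with Cy3 alone and 22.2% with only the arrays compared. Calls of members in the Cy5 reference over all comparisons (5 as reported) were 8 with only the arrays compared and 9 with array weights. They were 3 with outlier spots kept and 8 without both departing arrays. In the Cy3 channel (13 as reported) they were 25 with array weights and 22 without both departing arrays. These channel counts add up 9 probes in each comparison and are given without all-probe shares, so they cannot be read as particular to the members. In the ratio, array weights raised the all-probe share at 72 h against fed from 10.6% to 34.3%. Leaving out 1 array at a time gave, against fed, 1 to 3 calls in the 12 h comparison, 1 to 2 in that of 24 h and 3 to 6 in that of 72 h, then 0 to 0 at 24 h against 12 h, 1 to 6 at 72 h against 12 h, 1 to 4 at 72 h against 24 h, 2 to 13 in Cy5 and 10 to 19 in Cy3. The lowest counts of the 72 h comparisons came without 72 h replicate 1 (3, 1 and 1), with 3 at 72 h against fed also without fed replicate 3. Leaving out 72 h replicate 1 also gave the fewest all-probe calls of any single array in these comparisons, at 852, 618 and 552. As reported they were 2149, 2180 and 2149, so the drop was not confined to the members.

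The sign of uncalled values turned as follows. With median centring Tpi was -0.59 at 12 h, Pkm2 -0.39 and Gpd2 -0.20 at 24 h, and Ldh1 (A_65_P07485) -0.40 at 72 h. With Cy3 alone Pkm2 was 0.048 at 12 h and -0.064 at 24 h, Tpi 0.31, G6pc-rs -0.086 and Gpd2 -0.38 at 24 h, and Ldh1 (A_65_P07485) -0.35 at 72 h. Directly against the reference Gpd2 was 0.036 at 12 h, Tpi 0.012 at 24 h, and Eno1 -0.45 and Ldh1 (A_65_P07485) -1.14 at 72 h. With array weights Tpi was -0.012 at 12 h and 0.094 at 24 h, Eno1 -0.34 and Ldh1 (A_65_P07485) -1.14 at 72 h. Within-array loess gave Gpd2 0.017 at 12 h, and keeping outlier spots gave Ldh1 (A_65_P07485) -0.14 at 72 h. Without both departing arrays Tpi was -0.028 at 12 h and 0.13 at 24 h, Ldh1 (A_65_P07485) -0.25 at 24 h and -1.63 at 72 h, and Eno1 -0.52 at 72 h. Leaving out 1 array at a time gave ranges at 12 h of -0.28 to 0.078 for Gpd2 (above 0 without fed replicate 3), -0.19 to 0.42 for Tpi (below 0 without 12 h replicate 3) and -0.0018 to 0.36 for G6pc-rs (below 0 without 12 h replicate 2). At 24 h they were -0.15 to 0.25 for Gpd2 (below 0 without fed replicate 1 or 2 or 24 h replicate 2), -0.12 to 0.13 for Tpi and -0.25 to 3.19 for Ldh1 (A_65_P07485), and at 72 h -0.52 to 1.10 for Eno1 and -1.63 to 1.82 for Ldh1 (A_65_P07485), those 4 turning without fed replicate 3.

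Same-numbered pools came from different mice, and their deviations correlated by -0.30 to 0.13 over 18 pairs, so the number was not taken as a pairing. With a replicate block, all-probe calls against fed were 1291, 1493 and 1705 at 12, 24 and 72 h against 2208, 2031 and 2149, and 1 member probe was called at 12 h instead of 2. The count of all probes called at 12 h against fed ran from 0 with only the arrays compared to 4778 directly against the reference, at 24 h from 584 without fed replicate 1 to 6386 with array weights, and at 72 h from 852 without 72 h replicate 1 to 6953 with array weights. Median centring moved the share of higher calls at 72 h from 45.4% to 31.6% and at 24 h from 37.5% to 47.5%, and at 72 h against 12 h from 54.3% to 65.3%. It gave 11.4% at 24 h against 12 h, where loess gave 25.7% and the Feature Extraction ratio 26.5%, against 41.9% as reported. Without background correction the 24 h share was 48.6%. Depth limits the reading of G6pc-rs, not well above background in fed pools, and of the Cy5 channel throughout, whose median was close to its background.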
